A study of Mus musculus with 69 samples.

Results

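Transcripts of 10 BCL-2 family genes were followed in mouse T cells that carry different numbers of Stat5 alleles: Bcl2, Bcl2l1 and Mcl1, which protect cells, and Bcl2l11, Bbc3, Pmaip1, Bad, Bid, Bax and Bak1, which promote death. The genes were taken by symbol from the count tables of the series, and all 10 were found among the 24309 symbols that the tables share. WT mice have all Stat5a and Stat5b alleles, AAB mice are Stat5a-/- Stat5b+/- and BBA mice are Stat5a+/- Stat5b-/-. The deletions are germline, so every cell of an AAB or BBA animal carries them. Mice were 8 to 16 weeks old and of both sexes, and T cells were sorted from lymph nodes and spleen that had been pooled. CD8+ T cells were naive (CD44low CD62Lhigh), central memory (Tcm, CD44high CD62Lhigh) or effector memory (Tem, CD44high CD62Llow), and CD4+ T cells were naive. They were profiled without cytokine or after culture with 10 ng/ml IL-7 or IL-15 for 12 to 16 h per the labels (up to 18 h in the study's methods). The labels call the cells without cytokine cultured whereas the methods describe them as taken directly from the animal, so cytokine and culture time cannot be told apart in any cytokine comparison. Every CD8+ group had 2 libraries, and the naive CD4+ groups had 2 or 3. A further experiment used AAB CD8+ T cells activated for 24 h and infected with a retrovirus that carries constitutively active STAT5A (S5a, 2 libraries) or no insert (Ctl, 2 libraries), followed by 48 h in IL-2 and a sort for infected cells.

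The BCL-2 family sets the threshold of the mitochondrial route of apoptosis. BCL-2, BCL-XL (from Bcl2l1) and MCL-1 hold the outer mitochondrial membrane intact by binding their pro-death relatives. The BH3-only proteins BIM (from Bcl2l11), PUMA (Bbc3), NOXA (Pmaip1), BAD and BID occupy those guardians or activate BAX and BAK, the effectors that form pores. T cells without a survival cytokine die largely by this route, and IL-7 and IL-15, which signal through JAK1, JAK3 and STAT5, are known to keep naive and memory T cells alive with BCL-2 as a main mediator. BIM and BCL-2 are the pair best known for setting the lifespan of resting T cells.

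Because Bcl2 and Bcl2l11 moved with cytokine and Bbc3 with cell state in the comparisons that follow, 300 bases around their transcription starts (250 before and 50 after) are shown as RefSeq gives them on GRCm38.p6. Of the 10 members, 9 had such windows, 15 in all. Capitals mark GTAAACA, the core letters bound by forkhead factors such as FOXO1 and FOXO3, on either strand. The letters TTCNNNGAA, the core of a STAT site and the same on both strands, were searched too. Bcl2l11 had 2 windows and Bbc3 had 3, and for each only the window with a GTAAACA match is shown. Bcl2l1, which also differed between cell states, had 3 windows with no match, and these are not shown.
Bcl2, minus strand, chr1:106714241-106714540: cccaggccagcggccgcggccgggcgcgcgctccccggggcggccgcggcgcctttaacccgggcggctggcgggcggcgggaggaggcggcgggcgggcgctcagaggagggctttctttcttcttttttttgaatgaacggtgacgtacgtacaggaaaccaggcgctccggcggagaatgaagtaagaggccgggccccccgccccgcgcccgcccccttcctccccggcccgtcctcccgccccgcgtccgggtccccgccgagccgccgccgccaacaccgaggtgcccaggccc
Bcl2l11, plus strand, chr2:128125788-128126087: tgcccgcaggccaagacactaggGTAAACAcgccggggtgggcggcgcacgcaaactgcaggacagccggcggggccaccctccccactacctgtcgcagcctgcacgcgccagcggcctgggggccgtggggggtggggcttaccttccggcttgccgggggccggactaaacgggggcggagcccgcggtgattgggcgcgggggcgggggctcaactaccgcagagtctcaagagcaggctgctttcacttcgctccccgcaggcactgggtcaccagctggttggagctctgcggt
Bbc3, plus strand, chr7:16310011-16310310: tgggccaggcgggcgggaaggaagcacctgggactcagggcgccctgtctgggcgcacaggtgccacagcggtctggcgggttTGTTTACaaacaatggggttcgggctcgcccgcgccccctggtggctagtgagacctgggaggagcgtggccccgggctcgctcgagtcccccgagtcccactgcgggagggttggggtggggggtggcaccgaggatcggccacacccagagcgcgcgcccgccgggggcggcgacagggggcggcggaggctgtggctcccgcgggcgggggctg
GTAAACA lay in 2 of the 15 windows, at position 24 of the one shown for Bcl2l11 and at position 84 of the one shown for Bbc3, against 3.65% of all 32851 windows. TTCNNNGAA lay in 0 of the 15, against 8.30% of all windows. A match describes letters only, and a missing match says nothing of sites elsewhere. The search was chosen with the expression results known.

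Counts were scaled to library size and corrected for library composition, and the resulting levels are written as CPM. Library totals ran from 5926139 to 25612758 counts for CD8+, 6705004 to 34118295 for CD4+ and 11020965 to 16516525 for the retrovirus libraries. Stat5a lay at 0.981 to 5.13 CPM in AAB CD8+ libraries and 32.2 to 110.0 CPM in WT. Stat5b lay at 49.0 to 87.4 CPM in BBA, 80.5 to 132 CPM in AAB, which are Stat5b+/-, and 167 to 360.3 CPM in WT. In CD4+ cells Stat5b lay at 95.2 to 133.5 CPM in BBA and 271 to 377 CPM in WT. Each targeted gene was thus lower than in WT. Stat5b RNA remained in BBA, however, and over the CD8+ conditions its range overlapped that of AAB. In the CD8+ libraries Cd8a was at least 712 CPM, and one library, WT naive with IL-15 replicate 2, had Cd4 at 242 CPM where the next highest had 11.8. The retrovirus libraries went against their label. Cd8a was 1.42 to 3.14 CPM, Cd8b1 at most 1.57 and Cd3e 2.84 to 14.7 CPM there, whereas 4 natural killer cell genes (Ncr1, Klrb1c, Klra8 and Klra4) summed to 1610 to 1847 CPM. Of these 4, 1 was at 0 in S5a and 2 were at 0 in Ctl. The retrovirus libraries are called below the libraries labelled CD8+. By Xist and Y-linked genes, the naive CD8+ libraries with IL-7 came from males and those without cytokine or with IL-15 from females. For Tcm with IL-7, both WT libraries were male and AAB and BBA had 1 of each sex, while the other Tcm and all Tem libraries were female. The CD4+ libraries were all male. In bulk RNA, a lower level can mean fewer cells of a kind or less RNA per cell, and these cannot be told apart.

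Mcl1 was the most abundant member in WT cells in all 10 conditions when levels were divided by exon length. In naive CD8+ cells without cytokine, Mcl1 stood at 202 ± 16.5 CPM per kilobase (mean ± SD, n = 2), followed by the effector Bax at 52.8 ± 1.19, Bcl2 at 41.6 ± 2.73, the other effector Bak1 at 21.6 ± 1.20, Bbc3 at 13.1 ± 0.0325 and Bcl2l11 at 9.49 ± 0.202. The 4 lowest were Bid at 7.68 ± 1.21, Pmaip1 at 7.16 ± 0.147, Bad at 3.97 ± 0.812 and Bcl2l1 at 3.84 ± 0.294 CPM per kilobase. The libraries of Bid and Pmaip1 overlapped, as did those of Bad and Bcl2l1, and all other neighbours in this order were separate. With IL-7, Bcl2 passed Bax and reached 161 ± 2.22 CPM per kilobase, and Bcl2l11 passed Bak1 at 28.5 ± 0.428. In Tcm without cytokine, Bbc3 was the third at 53.5 ± 7.88 CPM per kilobase and overlapped Bcl2 at 45.2 ± 5.29. Tcm with IL-15 had Bcl2 second at 125 ± 14.2 and Bcl2l1 the fifth at 20.9 ± 1.89, where it lay above every BH3-only gene. Naive CD4+ cells kept the order Mcl1, Bax, Bcl2 without cytokine (239 ± 58.4, 33.5 ± 2.33 and 25.9 ± 4.15 CPM per kilobase, n = 3). Pmaip1 was barely expressed in CD4+ cells, at 0.542 ± 0.462 CPM per kilobase, and was too low to be tested in CD4+ cells without cytokine.

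**Figure D1:**
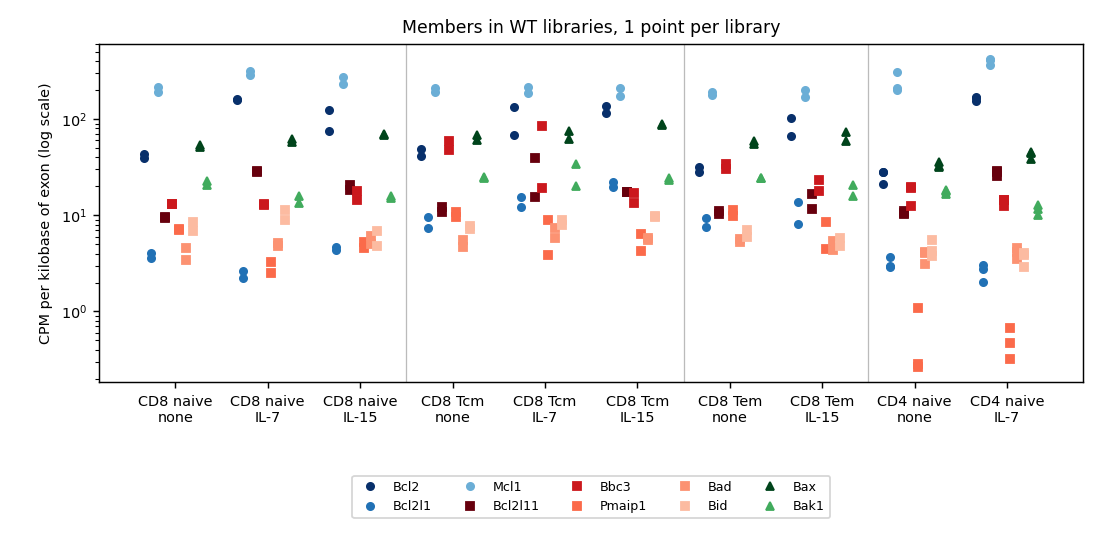
Levels of the 10 members in the WT libraries (CPM per kilobase of exon, log scale), 1 point per library, by cell type and cytokine. Blue circles are pro-survival members, red squares BH3-only members and green triangles effectors. Mcl1 is on top in every condition, Bcl2 lies between 21.1 and 169 CPM per kilobase, and Pmaip1 is at the bottom in CD4+ cells.

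Bcl2, on chr1:106538178-106714274 (mm10, minus strand), was lower in BBA than in WT cells in every CD8+ condition. In naive cells without cytokine, it measured 399 and 363 CPM in the WT libraries, 275 and 196 in AAB and 162 and 119 in BBA. Naive cells with IL-7 had 1463 and 1492 CPM in WT, 1303 and 1359 in AAB and 864 and 882 in BBA. With IL-15 they had 1132 and 688 CPM in WT, 500.2 and 511 in AAB and 153 and 223 in BBA. In all 3 conditions the libraries fell in the order WT, AAB, BBA with no overlap. Tcm without cytokine had 448 and 380.0, 257 and 219.7 and 132 and 127 CPM in WT, AAB and BBA. Tcm with IL-7 had 626 and 1226, 912 and 1021 and 589.7 and 474 CPM in the same order. The WT pair was far apart here and enclosed AAB, while both BBA libraries stayed below both WT libraries. With IL-15, Tcm had 1239.7 and 1056 CPM in WT, 701 and 693 in AAB and 291 and 249 in BBA. Tem without cytokine had 289.7 and 259, 179.6 and 147 and 78.2 and 76.3 CPM, and with IL-15 940.5 and 605, 473 and 338 and 189 and 162 CPM. Thus BBA lay below WT without overlap in 8 of 8 CD8+ conditions, AAB below WT in 7 of 8, and AAB above BBA in 8 of 8. How often all genes separate in this way is not given here.

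Calls required an adjusted p (Benjamini-Hochberg) under 0.05 in edgeR's quasi-likelihood test across all genes tested, together with a change above 1.5-fold. By this rule Bcl2 was lower in BBA than WT in 7 of the 8 CD8+ conditions. The log2 fold change was -1.44 (SE 0.20, adjusted p = 0.0116) in naive cells without cytokine, where 2.75% of all genes tested were called. It was -0.74 (SE 0.12, adjusted p = 0.0327) with IL-7 (2.69% of genes called) and -1.99 (SE 0.25, adjusted p = 0.00493) with IL-15 (9.60% called). In Tcm it was -1.58 (SE 0.13, adjusted p = 0.0123) without cytokine, a comparison in which 0.283% of genes were called, and -1.82 (SE 0.11, adjusted p = 0.00012) with IL-15, in which 23.5% were. Tem showed -1.71 (SE 0.12, adjusted p = 0.0116) without cytokine and -2.07 (SE 0.15, adjusted p = 0.0163) with IL-15, against 0.208% and 1.81% of genes called. Tcm with IL-7 was the exception at -0.60 (SE 0.33, adjusted p = 0.31), with 3.08% of genes called. The values with IL-15 in naive cells and in Tcm passed whichever library was left out, and the former was -2.31 (adjusted p = 0.00209) without the library rich in Cd4. In naive cells with IL-15 the 5 myeloid genes summed to 41.9 to 63.7 CPM in BBA and 6.16 to 10.4 in WT, with 2 of 5 called higher in BBA, and their part in the Bcl2 value was not tested. Elsewhere the fold changed little but the call could be lost. In naive cells with IL-7 and in Tcm without cytokine, leaving out any WT or BBA library lost it (adjusted p from 0.181 to 0.325 and from 0.0535 to 0.0837). Naive cells without cytokine lost it without WT replicate 1 (-1.35 (adjusted p = 0.0799)) or BBA replicate 2 (-1.21 (adjusted p = 0.0525)). Tem without cytokine lost it without either WT library (lowest adjusted p 0.0653, highest 0.132), and Tem with IL-15 without any 1 of its 6 libraries (0.0538 to 0.141). One fit over all CD8+ libraries also lost the call in naive cells with IL-7, at -0.72 (adjusted p = 0.0525).

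For AAB against WT, Bcl2 was called once in 8 CD8+ conditions, in Tcm with IL-15 at -0.66 (SE 0.11, adjusted p = 0.0177), a comparison with 4.45% of genes called. This call was lost without WT replicate 1 (-0.56 (adjusted p = 0.094)), AAB replicate 1 (-0.69 (adjusted p = 0.0941)) or AAB replicate 2 (-0.63 (adjusted p = 0.0816)), and in 1 fit over all CD8+ libraries (-0.67 (adjusted p = 0.109)). Its values in the other 7 conditions ran from -0.93 in Tem with IL-15 to 0.17 in Tcm with IL-7. When AAB was compared with BBA directly, Bcl2 was higher in AAB Tcm with IL-15, at 1.16 (SE 0.11, adjusted p = 0.00395) with 5.84% of genes called, and this held without any 1 library. In the other CD8+ conditions AAB exceeded BBA by 0.56 to 1.25 on the log2 scale, none called.

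**Figure D2:**
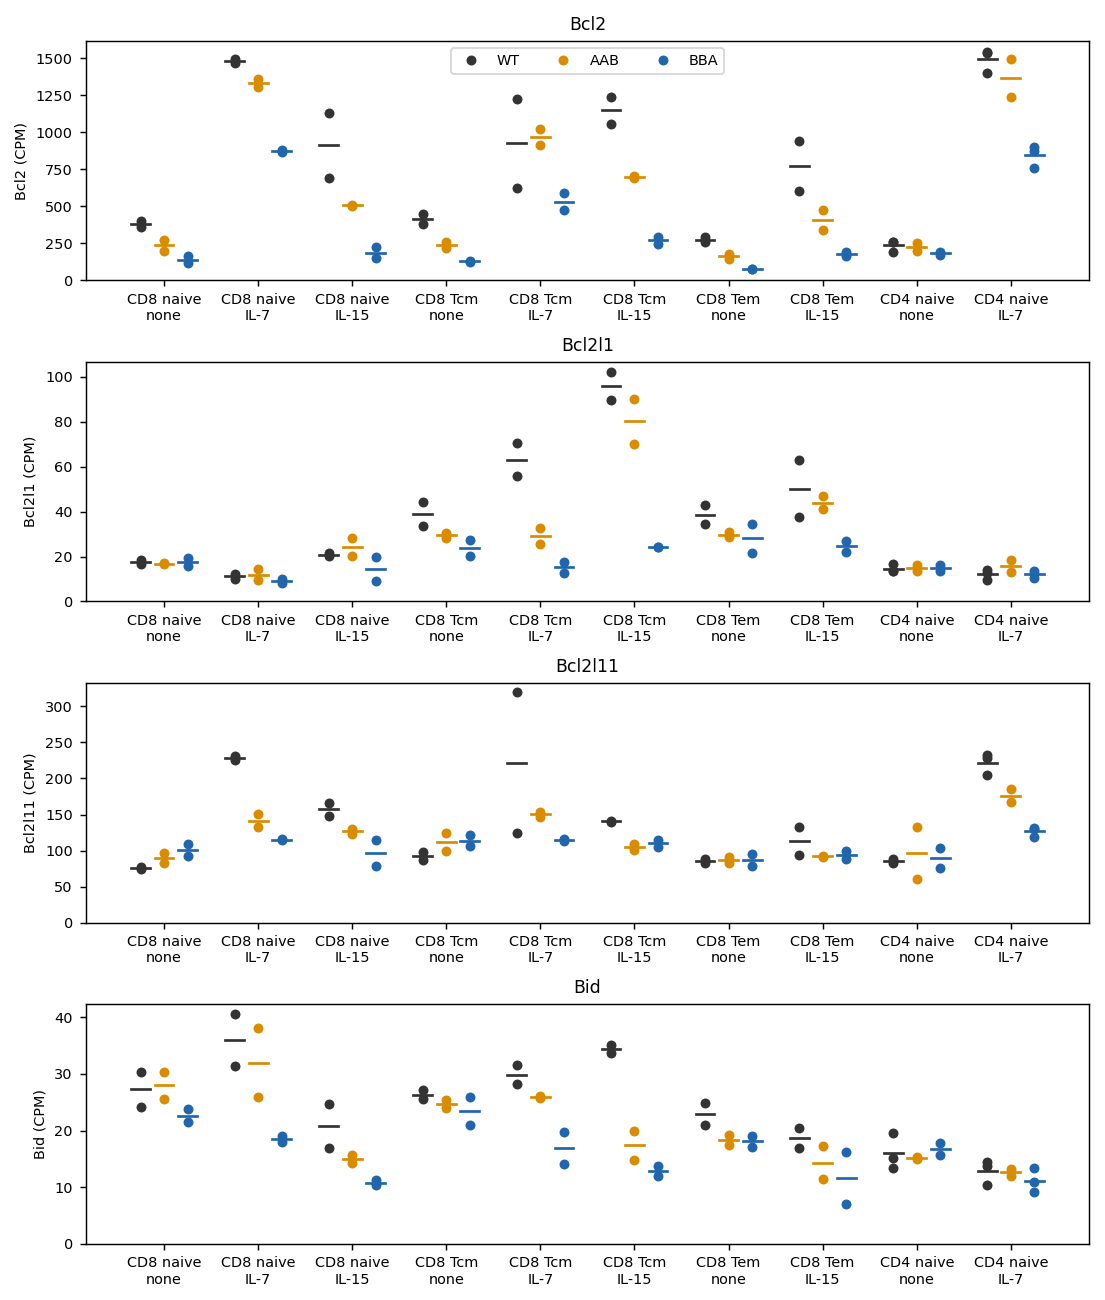
Levels of Bcl2, Bcl2l1, Bcl2l11 and Bid (CPM) in the 3 genotypes, by cell type and cytokine. Points are libraries and lines are group means. Blue BBA points for Bcl2 lie below the dark WT points in every CD8 condition, and Bcl2l1 is high in WT and AAB Tcm with IL-15 (70.2 to 102 CPM) and at 24.3 CPM in both BBA libraries.

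Bcl2l1 (chr2:152780668-152831728, minus strand), which encodes BCL-XL, differed between genotypes in memory cells. In Tcm with IL-15 it measured 102 and 89.7 CPM in WT, 70.2 and 90.3 in AAB and 24.3 and 24.3 in BBA. In Tcm with IL-7 the values were 70.6 and 55.7, 32.7 and 25.4 and 17.8 and 12.8 CPM. AAB overlapped WT in the first and lay between WT and BBA, overlapping neither, in the second. The BBA change was called in both, at -1.71 (SE 0.13, adjusted p = 0.000241) with IL-15 and -1.82 (SE 0.24, adjusted p = 0.0232) with IL-7. The IL-7 call was lost without BBA replicate 1 (-2.04 (adjusted p = 0.143)) or replicate 2 (-1.62 (adjusted p = 0.23)), and with a term for sex (-2.06 (adjusted p = 0.0736)). AAB exceeded BBA in Tcm with IL-15 at 1.51 (SE 0.13, adjusted p = 0.00395). Against WT, AAB was -0.97 (adjusted p = 0.302) in Tcm with IL-7 and -0.20 (adjusted p = 0.356) with IL-15. In Tcm without cytokine the libraries measured 44.3 and 33.8 CPM in WT and 27.4 and 20.3 in BBA, and in Tem with IL-15 63.1 and 37.5 and 27.2 and 22.1 CPM. Neither was called (-0.61 (adjusted p = 0.399) and -0.96 (adjusted p = 0.0528)), although WT and BBA did not overlap in either. Naive cells had little Bcl2l1 in any genotype, 8.27 to 28.4 CPM. Genes of B cells summed to 196 to 393 CPM in BBA Tcm with IL-15, 109.6 to 195 in WT and 76.9 to 219 in AAB, with all 6 detected, and with IL-7 to 141 to 254 in BBA and 19.4 to 47.9 in WT. Their part in the Tcm results was not tested.

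Mcl1 (chr3:95658788-95663176, plus strand), a short-lived guardian that T cells need at all stages, was not called in any CD8+ genotype comparison. It ranged from 471 to 1093 CPM over all 48 CD8+ libraries, a narrow span beside that of Bcl2 (76.3 to 1492 CPM). BBA against WT ran from -0.45 to 0.21 on the log2 scale over the 8 CD8+ conditions, with a lowest adjusted p of 0.211. AAB against WT ran from -0.42 to 0.19, with a lowest adjusted p of 0.389.

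Among the BH3-only genes, Bcl2l11 (chr2:128126038-128162547, plus strand) was lower in BBA naive cells with IL-7. It measured 226 and 231 CPM in WT, 132 and 151 in AAB and 115 and 114 in BBA. Without cytokine the values were 75.0 and 77.3, 82.1 and 96.7 and 91.9 and 109 CPM. With IL-7 the libraries ran WT, AAB, BBA from high to low without overlap, and without cytokine WT was the lowest. BBA differed from WT by -0.97 (SE 0.13, adjusted p = 0.0176) with IL-7, a call lost without any 1 of the WT or BBA libraries (adjusted p 0.107 to 0.187), and by 0.41 (adjusted p = 0.0819) without cytokine. AAB differed by -0.71 (adjusted p = 0.127) with IL-7. In the 7 other CD8+ conditions Bcl2l11 was not called in either genotype. In Tcm with IL-7 the WT pair was split, at 124 and 319.7 CPM, with the BBA libraries at 116 and 113.

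Bid (chr6:120891930-120916853, minus strand), which links death receptors to mitochondria once caspase-8 has cut it, was lower in both deficient genotypes in Tcm with IL-15. It measured 33.7 and 35.2 CPM in WT, 14.8 and 20.0 in AAB and 12.0 and 13.8 in BBA, with neither deficient genotype overlapping WT. The change was -1.15 (SE 0.17, adjusted p = 0.00243) in BBA, which held without any 1 library, and -0.93 (SE 0.17, adjusted p = 0.0239) in AAB. The AAB call was lost without WT replicate 1 (-0.98 (adjusted p = 0.0845)), WT replicate 2 (-0.85 (adjusted p = 0.1)) or AAB replicate 1 (-0.75 (adjusted p = 0.13)). In naive cells with IL-7, Bid measured 40.7 and 31.5 CPM in WT and 18.01 and 19.1 in BBA, a difference of -0.94 (adjusted p = 0.0767). All 8 CD8+ estimates for BBA against WT lay below 0, from -1.15 to -0.08. Bid shares 17.7% of its exon bases with Bcl2l13 on the opposite strand, and whether strand was used in counting is not given in the sources used here.

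Pmaip1, which encodes NOXA, the partner that targets MCL-1, was called in 1 condition. In Tcm with IL-15 it measured 17.3 and 11.7 CPM in WT, 8.27 and 9.61 in AAB and 6.05 and 4.07 in BBA. BBA did not overlap WT, at -1.26 (SE 0.28, adjusted p = 0.011). Without WT replicate 1 or BBA replicate 2 it was -0.98 (adjusted p = 0.0679) or -0.98 (adjusted p = 0.0604). Bbc3 (chr7:16308393-16318205, plus strand), a p53 and FOXO target, ranged from -0.64 to 0.39 in BBA against WT and from -0.57 to 0.72 in AAB against WT, with no call. Bad (chr19:6941861-6951899, plus strand), whose product is switched off by phosphorylation rather than by transcript level, ranged over 8.52 to 18.9 CPM in all CD8+ libraries and was not called in any genotype comparison (-0.19 to 0.26 over both genotypes). Bad shares 20.5% of its exon bases with Gpr137 on the opposite strand.

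Of the effectors, Bax (chr7:45461697-45466898, minus strand) was lower in BBA Tcm with IL-15. It measured 142 and 136 CPM in WT, 100.2 and 94.9 in AAB and 67.0 and 69.2 in BBA, with no overlap between any pair of genotypes. The BBA change was -0.76 (SE 0.09, adjusted p = 0.000899) and held without any 1 library. AAB was lower by less than the 1.5-fold limit, at -0.45 (SE 0.08, adjusted p = 0.0269). BBA libraries lay below WT without overlap in 6 of 8 CD8+ conditions for Bax, but the other 7 values were not called (-0.45 to 0.05). The share of all genes that separate so is not given here. Bak1 (chr17:27019810-27029009, minus strand) fell in BBA Tcm with IL-15 by less than the limit too, at -0.45 (SE 0.09, adjusted p = 0.009). Bak1 shares 25.5% of its exon bases with Ggnbp1 on the opposite strand, and Bax 12.2% with Gm45808 on its own strand.

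Over the 10 conditions, CD4+ included, members were called for BBA against WT in 16 of 99 tests, or 16.2%, and every call was lower in BBA. Over all genes, 5% of the same tests were calls. Bcl2 made 8 of the 16, and the 9 other members together were called in 8 of 89 tests, or 8.99%. In Tcm with IL-15, 5 of 10 members were called beside 23.5% of all genes, and their median log2 fold change was -0.61. Markers moved in the same comparison. The 6 memory and effector genes summed to 790.1 to 979 CPM in BBA and 1820.0 to 1993 in WT, with 3 of 6 called lower, and the 4 naive genes to 3479 to 3640.1 and 2936 to 2972 CPM, with 2 of 4 called higher. The 4 proliferation genes summed to 41.2 to 72.3 CPM in BBA and 113 to 129 in WT, and the 5 myeloid genes to 28.1 to 48.7 and 7.42 to 10.04 CPM, with 2 of 5 called higher and 1 of 5 at 0 in WT. Their part in the member results was not tested. AAB against WT gave 2 calls in 99, both lower, against 0.683% of all genes. AAB against BBA gave 3 calls in 99, all higher in AAB, against 0.822% of all genes. These counts depend on the tool. DESeq2 gave 9 calls for AAB against WT and 8 for AAB against BBA, beside 2.4% and 1.9% of all genes. Leaving out 1 replicate number gave 0 to 5 and 2 to 4 calls, beside 0.228% to 1.94% and 0.369% to 0.835% of all genes.

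**Figure D3:**
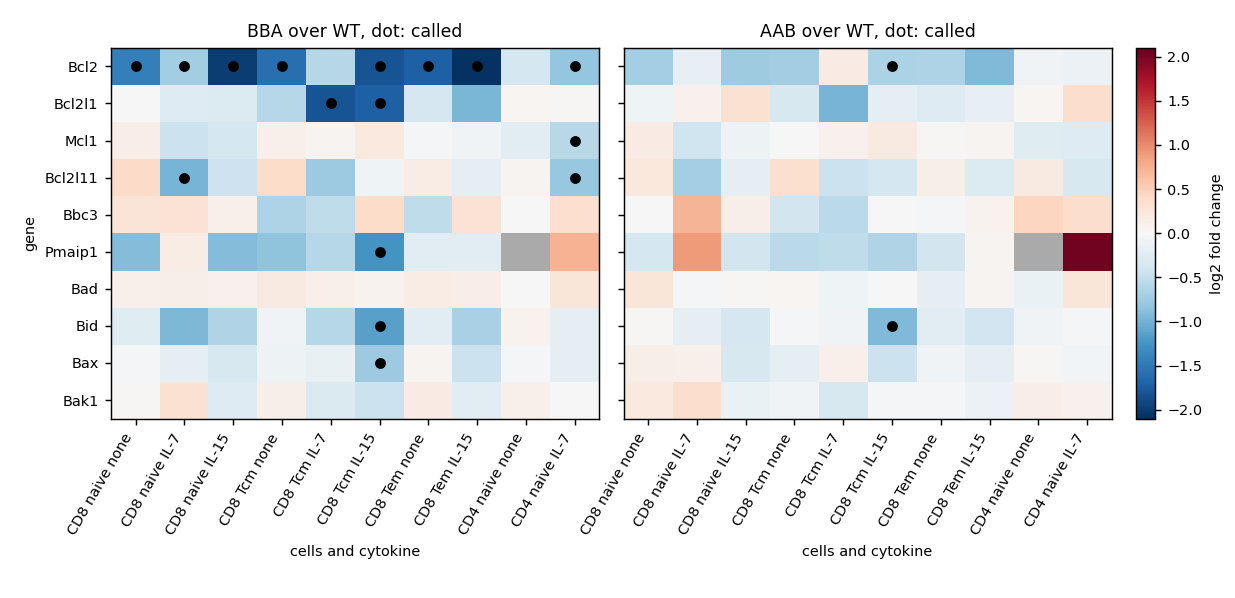
Log2 fold change of each member in BBA (left) and AAB (right) over WT, by cell type and cytokine, from -2.1 (blue) to 2.1 (red). Black dots mark calls and grey cells were not tested. The 16 dots on the left, 8 of them for Bcl2, are all on blue cells, and the right panel has 2.

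In naive CD4+ cells, Bcl2, Bcl2l11 and Mcl1 were lower in BBA than WT with IL-7, and no member was called without cytokine. The difference between the BBA and WT responses to IL-7 was not called for any of the 3 (-0.44 (adjusted p = 0.434), -0.86 (adjusted p = 0.274) and -0.36 (adjusted p = 0.592)). Without cytokine Bcl2 measured 259.6, 259 and 193 CPM in WT, 199 and 251 in AAB and 173 and 195 in BBA, with overlap. With IL-7 it measured 1532, 1400.5 and 1543 CPM in WT, 1240.2 and 1492 in AAB and 872, 757 and 900.0 in BBA. All 3 BBA libraries were then below every WT and AAB library. BBA differed from WT by -0.81 (SE 0.10, adjusted p = 0.00122) and AAB from BBA by 0.68 (SE 0.11, adjusted p = 0.0149), in comparisons with 5.51% and 1.57% of genes called. The second was 0.55 (adjusted p = 0.1) without AAB replicate 3. Bcl2l11 with IL-7 measured 204, 229 and 232 CPM in WT, 167 and 185 in AAB and 129.9, 131 and 119 in BBA. The libraries followed the order WT, AAB, BBA without overlap, and BBA differed from WT by -0.79 (SE 0.07, adjusted p = 0.000167). Mcl1 measured 1264, 1393 and 1440.5 CPM in WT and 864, 874 and 959 in BBA, a difference of -0.59 (SE 0.09, adjusted p = 0.00484) that lies at the 1.5-fold limit and dropped under it without WT replicate 2 (-0.58 (adjusted p = 0.0243)), WT replicate 3 (-0.56 (adjusted p = 0.0219)), BBA replicate 1 (-0.56 (adjusted p = 0.0204)) or BBA replicate 2 (-0.57 (adjusted p = 0.0136)). Without cytokine the largest BBA change in CD4+ cells was that of Bcl2, at -0.37 (adjusted p = 0.496), in a comparison with 1.13% of genes called. Bcl2l1 stayed at 9.40 to 18.2 CPM in all CD4+ libraries.

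Bcl2 rose with cytokine in WT cells in all 6 cultures. The libraries with cytokine were above those without in every case, by 2.03 (SE 0.23, adjusted p = 5.03e-05) in naive CD8+ cells with IL-7, 1.30 (SE 0.22, adjusted p = 0.00352) with IL-15, 1.19 (SE 0.25, adjusted p = 0.025) in Tcm with IL-7 and 1.42 (SE 0.25, adjusted p = 0.00827) with IL-15. Tem with IL-15 showed 1.65 (SE 0.14, adjusted p = 0.000884) and naive CD4+ cells with IL-7 2.66 (SE 0.14, adjusted p = 2.46e-08). All genes tested were called at 18.7%, 5.72%, 3.17%, 3.66%, 1.73% and 16.3% in these 6 comparisons. In these fits a replicate was left out by dropping its number from every culture of a genotype. The Tcm IL-7 value rested on WT replicate 2 and was 0.47 (adjusted p = 0.246) without it, and it also lost its call without any 1 AAB or BBA replicate (adjusted p 0.0683 to 0.0734). In naive cells with IL-15 it was 0.99 (adjusted p = 0.129) without WT replicate 1. When the WT libraries were fitted alone, the 2 Tcm values no longer passed (1.18 (adjusted p = 0.243) and 1.40 (adjusted p = 0.224)). For naive CD8+ cells and WT Tcm, IL-7 and sex cannot be told apart. Markers differed with IL-7 too. In WT naive CD8+ cells the 6 B cell genes summed to 58.7 to 150 CPM without cytokine and 8.97 to 15.5 with IL-7. There the 3 T cell genes (Cd3d, Cd3e and Cd3g) summed to 1549 to 1671 and 877 to 892 CPM. In WT Tcm the B cell genes summed to 188 to 314 and 19.4 to 47.9 CPM. The part of these markers in the IL-7 response of any member was not tested.

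Bcl2 also rose in both deficient genotypes in all 6 cultures. Naive BBA cells with IL-7 went from 162 and 119 to 864 and 882 CPM, a log2 response of 2.72 (SE 0.23, adjusted p = 1.41e-05), and AAB responded by 2.57 (SE 0.23, adjusted p = 1.87e-05). In Tcm with IL-7 the response was 2.16 (SE 0.26, adjusted p = 0.00112) in BBA and 2.09 (SE 0.25, adjusted p = 0.00148) in AAB, and both libraries of each genotype, 1 of each sex, were above all those without cytokine. In naive cells with IL-15 the BBA response was smaller, at 0.72 (SE 0.22, adjusted p = 0.0284), and its libraries without (162 and 119 CPM) and with IL-15 (153 and 223 CPM) overlapped, while AAB gave 1.27 (SE 0.22, adjusted p = 0.0017). In Tcm, IL-15 gave 1.17 in BBA and 1.51 in AAB, and in Tem 1.27 and 1.34. The difference between the BBA and WT responses was not called for Bcl2 in any culture, and ran from -0.58 (adjusted p = 0.39) in naive cells with IL-15 to 0.97 (adjusted p = 0.203) in Tcm with IL-7.

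Bcl2l11 rose with Bcl2 in 4 of the 6 WT cultures: naive CD8+ cells with IL-7 (1.66 (SE 0.14, adjusted p = 5.15e-06)) and IL-15 (1.09 (SE 0.14, adjusted p = 0.000457)), Tcm with IL-7 (1.29 (SE 0.31, adjusted p = 0.0413)) and CD4+ cells with IL-7 (1.38 (SE 0.20, adjusted p = 0.00019)). The Tcm value fell to 0.49 (adjusted p = 0.255) without WT replicate 2, was lost without any 1 AAB or BBA replicate (adjusted p 0.0987 to 0.104), and was 1.28 (adjusted p = 0.295) with WT libraries alone. The naive IL-15 value was 1.0 (adjusted p = 0.0854) without WT replicate 2. In AAB cells the response was 0.73 (SE 0.14, adjusted p = 0.00313) in naive CD8+ cells with IL-7, and in BBA it was 0.28 (SE 0.14, adjusted p = 0.194). The BBA response was smaller than the WT response by a tested difference of -1.39 (SE 0.20, adjusted p = 0.00336), in a comparison with 1.86% of genes called, and this was lost without WT replicate 1 (-1.39 (adjusted p = 0.106)), WT replicate 2 (-1.38 (adjusted p = 0.0713)) or BBA replicate 2 (-1.24 (adjusted p = 0.0524)). All of these naive libraries with IL-7 were male and all without cytokine female, in each genotype. In CD4+ cells, where all libraries were male, the difference between the responses was -0.86 (adjusted p = 0.274).

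Bcl2l1 responded to IL-15 in Tcm. WT libraries went from 44.3 and 33.8 to 102 and 89.7 CPM, AAB from 30.6 and 28.3 to 70.2 and 90.3, and BBA from 27.4 and 20.3 to 24.3 and 24.3. WT and AAB libraries separated without overlap and BBA libraries did not. The response was 1.25 (SE 0.20, adjusted p = 0.00636) in WT, 1.40 (SE 0.20, adjusted p = 0.0058) in AAB and 0.14 (SE 0.21, adjusted p = 0.729) in BBA. The BBA response differed from that of WT by -1.11 (SE 0.29, adjusted p = 0.0448), with 4.47% of genes called. In the same test the responses of Bid and Bax differed too, by -1.08 (SE 0.25, adjusted p = 0.0276) and -0.66 (SE 0.16, adjusted p = 0.0343). Each of these 3 differences was lost without any 1 replicate of WT, AAB or BBA (lowest adjusted p 0.0714, highest 0.326). The WT response of Bcl2l1 was 1.16 (adjusted p = 0.0513) without WT replicate 2 and 1.23 (adjusted p = 0.148) with WT libraries alone.

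Other members moved in single cultures. Mcl1 rose in WT naive CD8+ cells with IL-7, from 652 and 731 to 990.3 and 1093 CPM (0.67 (SE 0.15, adjusted p = 0.00588)), a call lost without WT replicate 1 (0.67 (adjusted p = 0.114)) or replicate 2 (0.67 (adjusted p = 0.131)). It also rose in CD4+ cells, from 719, 682 and 1045 to 1264, 1393 and 1440.5 CPM (0.75 (SE 0.14, adjusted p = 0.000988)). Bak1 fell in CD4+ cells of each genotype (-0.62 (SE 0.12, adjusted p = 0.00109) in WT, -0.69 (adjusted p = 0.00359) in AAB and -0.74 (adjusted p = 0.000821) in BBA). It also fell in naive CD8+ cells with IL-15 in AAB (-0.76 (SE 0.14, adjusted p = 0.00208)) and in all 3 IL-15 cultures of BBA, for example from 52.6 and 52.9 to 21.1 and 30.2 CPM in naive cells with IL-15 (-0.74 (SE 0.14, adjusted p = 0.00181)). Pmaip1 fell in WT naive cells with IL-7, from 19.3 and 19.8 to 6.91 and 8.88 CPM (-1.23 (SE 0.26, adjusted p = 0.00372)), a value that was -1.07 (adjusted p = 0.139) and -1.41 (adjusted p = 0.0748) without WT replicate 1 and 2. Bbc3 fell in WT Tcm with IL-15, from 102 and 125 to 28.7 and 36.4 CPM (-1.85 (SE 0.48, adjusted p = 0.0453)). That call was lost without any 1 AAB or BBA replicate (adjusted p 0.0884 to 0.121), with another filter on low counts (-1.82 (adjusted p = 0.0642)) and with WT libraries alone (-1.87 (adjusted p = 0.297)). With IL-7, the WT Tcm libraries had Bbc3 at 181 and 40.6 CPM, so the pair disagreed. Bid fell in naive cells with IL-15 in BBA, at -0.75 (SE 0.23, adjusted p = 0.0247), and in AAB, at -0.74 (SE 0.22, adjusted p = 0.0285), and in BBA Tcm with IL-15, at -0.74 (SE 0.18, adjusted p = 0.0282).

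Counted over the 6 cultures, members were called in 16 of 60 tests in WT (13 up and 3 down, against 8.22% of all genes), in 15 of 60 in AAB (12 up and 3 down, against 7.98%) and in 14 of 60 in BBA (6 up and 8 down, against 10.2%). Bcl2 gave 6 of the calls up in each genotype, so in BBA no other member was called up. In AAB, 1 of the calls up was Pmaip1 in CD4+ cells with IL-7 (1.86, edgeR, adjusted p = 0.0461). It measured 3.29 and 7.80 CPM there and at most 2.94 CPM in any other CD4+ group. The filter on low counts looks at the highest library of a gene, here an AAB library with IL-7, so nothing is drawn from this call. The response differed from WT in 4 of 60 tests for BBA, against 1.67% of all genes. For AAB it differed in 0 of 60 by edgeR, against 0.111% of all genes, and in 1 by DESeq2, against 0.714%. The unadjusted edgeR p was under 0.05 in 8 of these 60 tests, and for 340 of 10535 to 1096 of 10606 genes per culture. A call in one genotype and not in another is otherwise no test of a difference.

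**Figure D4:**
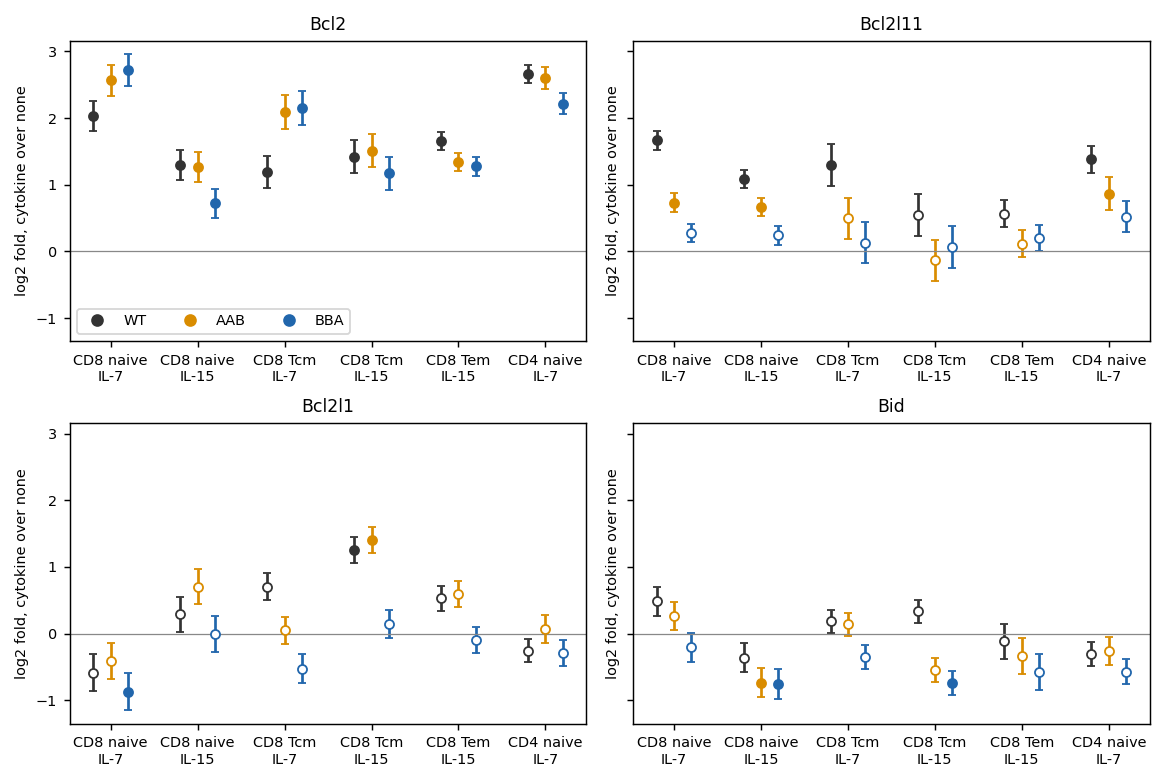
Log2 response to cytokine (cytokine over none) of Bcl2, Bcl2l11, Bcl2l1 and Bid in WT, AAB and BBA, by cell type and cytokine. Points are estimates, bars are 1 SE and filled points are calls. All 18 points for Bcl2 are filled and above 0, whereas for Bcl2l11 the BBA points (0.07 to 0.52) are open.

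Between WT cell states, memory cells had more Bcl2l1 than naive cells without cytokine and with IL-15, and more Bbc3 without cytokine, while Bcl2 and Mcl1 were not called. In all, members were called in 7 of 60 tests between states, each higher in memory cells, against 4.21% of all genes. Without cytokine Bcl2l1 measured 18.6 and 16.6 CPM in naive cells, 44.3 and 33.8 in Tcm and 42.8 and 34.4 in Tem. Bbc3 measured 27.9 and 28.0 CPM in naive cells, 102 and 125 in Tcm and 72.3 and 64.1 in Tem. For both genes all memory libraries lay above the naive ones, and for Bbc3 those of Tcm also lay above those of Tem. Over naive cells, Bcl2l1 was higher in Tcm by 1.11 (SE 0.18, adjusted p = 0.0259) and in Tem by 1.16 (SE 0.18, adjusted p = 0.00875), and Bbc3 by 2.0 (SE 0.15, adjusted p = 0.00206) and 1.31 (SE 0.15, adjusted p = 0.00273). Pmaip1 was higher in Tem by 0.59 (SE 0.13, adjusted p = 0.037), at the 1.5-fold limit, and lost its call without any 1 naive or Tem library (highest adjusted p 0.271). In these comparisons 2.78% and 8.08% of genes were called, and 1.95% between Tem and Tcm, where Bcl2 differed by -0.54 (adjusted p = 0.113). The Bcl2l1 call in Tcm was lost without naive replicate 1 (0.126), naive replicate 2 (0.176) or Tcm replicate 1 (0.0605, all adjusted p), and in Tem without naive replicate 2 (0.0797) or Tem replicate 1 (0.0527).

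Bcl2l1 was also higher in memory cells with IL-15. Naive libraries had 21.7 and 20.1 CPM, Tcm 102 and 89.7 and Tem 63.1 and 37.5 CPM, so every memory library was above both naive ones. The difference was 2.08 (SE 0.15, adjusted p = 0.00395) for Tcm and 1.40 (SE 0.15, adjusted p = 0.0137) for Tem, with 7.54% and 2.88% of genes called, and 2.02% between Tem and Tcm. Without Tcm replicate 1 they were 2.01 (adjusted p = 0.0558) and 1.40 (adjusted p = 0.0627), and without Tcm replicate 2 the second was 1.40 (adjusted p = 0.0623). Bbc3 differed from naive cells by -0.21 (adjusted p = 0.501) in Tcm and 0.49 (adjusted p = 0.253) in Tem with IL-15, neither called. Bcl2 differed between Tem and naive cells by -0.45 (adjusted p = 0.0913) without cytokine and by -0.09 (adjusted p = 0.901) with IL-15.

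In the retrovirus experiment, which asked what active STAT5A does in AAB cells, Bcl2 and Bcl2l11 rose together. Stat5a itself measured 60.7 and 60.9 CPM in the S5a libraries and 3.17 to 8.35 CPM in Ctl. Stat5b was higher in S5a as well, at 132 to 150 CPM against 61.4 to 72.6 in Ctl. Bcl2 measured 390.2 and 291 CPM in S5a and 145 and 134 in Ctl, with no overlap, a change of 1.26 (SE 0.16, adjusted p = 0.00831). Bcl2l11 measured 202 and 211 and 129.6 and 101 CPM, also separate (0.81 (SE 0.14, adjusted p = 0.0217)). The Bcl2l11 call was lost without S5a replicate 1 (0.86 (adjusted p = 0.0684)) or 2 (0.77 (adjusted p = 0.0621)). Bcl2l1 measured 77.0 and 49.98 CPM in S5a and 36.1 and 38.9 in Ctl, separate but not called (0.73 (adjusted p = 0.0962)). Thus 2 of 10 members were called, both up, against 6.63% of all genes, and the 7 others ran from -0.21 (Bid) to 0.43 (Pmaip1). These libraries lack the defining CD8+ T cell transcripts, and marker sums also differed between arms: 5 myeloid genes summed to 1208 to 1359.8 CPM in S5a and 480.5 to 625 in Ctl, and 6 B cell genes to 9.99 to 27.8 and 92.6 to 153. The myeloid genes did not move together: Itgam was called higher in S5a (1.985), whereas Lyz2 (-2.65) and Csf1r (-2.57) were called lower. The part of these markers in the changes of Bcl2 and Bcl2l11 was not tested.

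The balance of the family was summarised per library as the log2 ratio of the summed per-kilobase levels of the 3 pro-survival members to those of the 7 pro-apoptotic members, as a description with no test. It was above 0 in all 67 libraries. In naive CD8+ cells without cytokine it was 1.10 ± 0.05 in WT (mean ± SD), 1.05 ± 0.04 in AAB and 1.07 ± 0.11 in BBA, which overlapped. With IL-7 it was 1.80 ± 0.03 in WT and 1.49 ± 0.24 in BBA, and with IL-15 1.38 ± 0.05 and 1.0 ± 0.10, both separate and lower in BBA. Tcm went the other way: with IL-15 the balance was 1.03 ± 0.05 in WT, 1.27 ± 0.03 in AAB and 1.15 ± 0.04 in BBA, so both deficient genotypes were above WT. BBA lay below WT in 7 of 10 conditions, 5 of them without overlap, and the mean difference over the 10 was -0.14, with single differences from -0.46 to 0.19. Mcl1 made up 56.7% ± 5.85 of the pro-survival sum in WT Tcm with IL-15 and 84.1% ± 1.77 in BBA. The share of Bcl2 was 37.1% ± 5.13 in WT and 13.5% ± 1.73 in BBA. With the median member in place of the sum, where Bcl2 and Bcl2l11 are usually the medians, the mean difference was -1.36.

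The ratio of Bcl2 to Bcl2l11 alone moved much further. Per kilobase, its log2 was 2.13 ± 0.13 in WT naive cells without cytokine and 0.28 ± 0.49 in BBA, and in Tem without cytokine 1.49 ± 0.05 and -0.36 ± 0.22, where BBA libraries held less Bcl2 than Bcl2l11. The BBA value was below WT, without overlap, by -1.85, -1.97 and -1.84 in naive cells, Tcm and Tem without cytokine and by -1.53, -1.74 and -1.85 with IL-15. In CD4+ cells without cytokine the difference was -0.41, with overlap. With IL-7 the difference was 0.23 in naive CD8+ cells, 0.07 in Tcm and -0.02 in CD4+ cells, where Bcl2l11 was lower along with Bcl2. AAB naive cells and Tcm with IL-7 were above WT by 0.54 and 0.55.

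**Figure D5:**
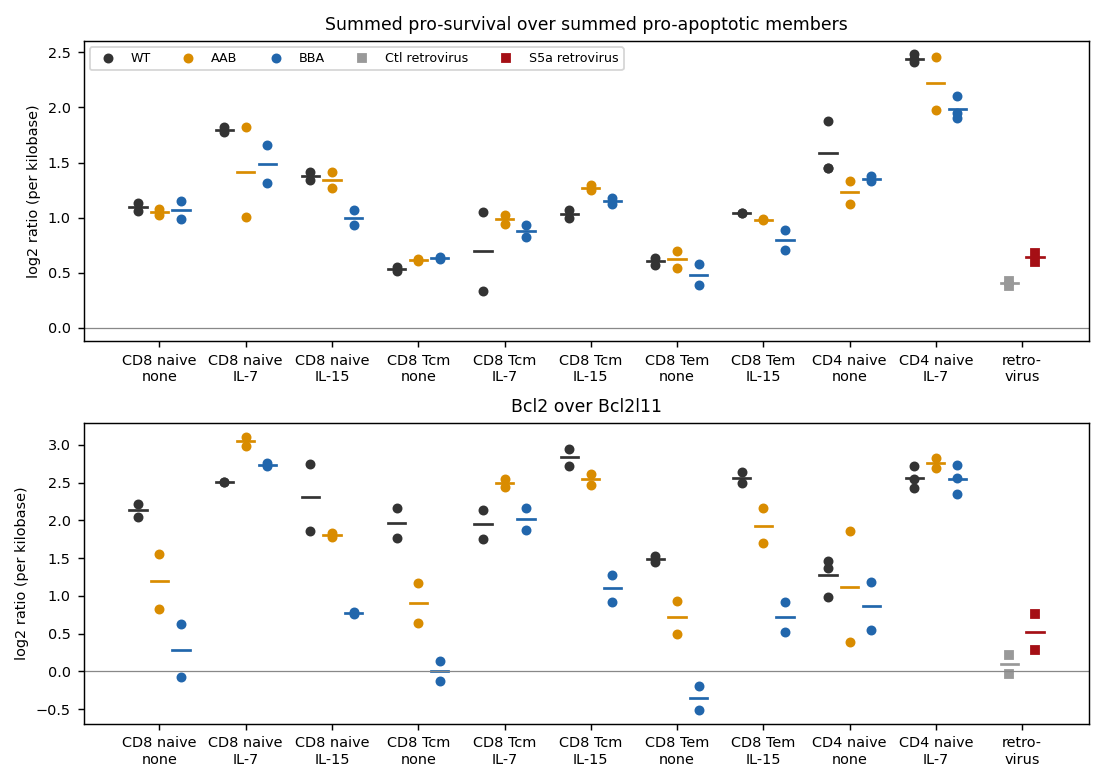
Log2 ratio of summed pro-survival to summed pro-apoptotic members (top) and of Bcl2 to Bcl2l11 (bottom), per kilobase, by condition. Points are libraries and lines are group means. In the top panel all points are above 0 and genotypes lie close together. In the bottom panel the CD8 BBA points lie far below WT without cytokine and with IL-15. With IL-7 the BBA and WT means differ by at most 0.23, and the AAB means of CD8 naive cells and Tcm lie 0.54 and 0.55 above WT.

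Of 46 other genes of the apoptotic pathway (further BCL-2 relatives, caspases and the apoptosome, death receptors, and regulators of the family), 34 to 37 passed the filter on low counts in each comparison. Without cytokine, the genotypes differed in 1: Fas, a death receptor, was higher in BBA naive cells (0.98 (SE 0.13, adjusted p = 0.0095)), a comparison with 2.75% of all genes called. In BBA Tcm with IL-15, 5 rose and 4 fell of 35, beside 23.5% of all genes called. Those that rose most were Tnfrsf10b, the mouse TRAIL receptor (1.42), Bcl2a1b, a pro-survival relative with near-identical copies that share reads (1.05), and Fas (0.73). Those that fell most were Cycs, which encodes cytochrome c (-0.92), Endog, a mitochondrial nuclease (-0.85), and Bcl2l12 (-0.62). Their median was 0.12, against -0.61 for the members. Tnfrsf10b was also higher in BBA naive cells with IL-15 (2.22 (SE 0.35, adjusted p = 0.00887)), and in CD4+ cells with IL-7 Casp8 and Diablo were lower in BBA (-0.78 and -0.68).

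Among these genes, Foxo1, a transcription factor that activates Bcl2l11 and Bbc3 in several cell types, fell with IL-7 in naive cells of each genotype. The change was -1.22 (SE 0.17, adjusted p = 0.000284) in WT naive CD8+ cells, -0.89 (SE 0.17, adjusted p = 0.00348) in AAB and -0.60 (SE 0.17, adjusted p = 0.0312) in BBA, and in CD4+ cells -1.03, -0.86 and -0.77. In WT naive CD8+ cells with IL-7, 3 of 35 rose, namely Bnip3 (0.96), Fas (0.64) and Usp9x, a deubiquitinase that stabilises MCL-1 (0.60), and 2 fell, Foxo1 and Foxo3 (-0.60). Of all genes, 18.7% were called there. In WT Tem over naive cells without cytokine, 4 of 35 were higher and none lower, led by Fasl, the ligand of Fas, at 4.87 (SE 0.50, adjusted p = 0.0018), and Bcl2a1b at 1.93. Of all genes, 8.08% were called in that comparison. Fasl was the 1 of 37 called in the retrovirus experiment, at 1.04 (SE 0.15, adjusted p = 0.0127), against 6.63% of all genes.

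The genes whose pattern was most like that of a member were ranked by Pearson's r over the 24 CD8+ group means, among 8758 genes, as a description. These means share libraries, depth and the same mice, so they are not independent points. For Bcl2 the closest were Xrn2 (r = 0.975), Ngly1 (0.954) and Sec24a (0.944), for Bcl2l1 Lpar5 (0.915), Nfatc2 (0.914) and Dusp5 (0.909), for Mcl1 Zfp740 (0.912), Slc22a5 (0.893) and Heatr5a (0.885), and for Bcl2l11 Kdsr (0.854), Rell2 (0.853) and Cnep1r1 (0.849). Kdsr is the neighbour of Bcl2 in the genome. Among members, Bcl2 and Bcl2l11 gave r = 0.716, Bax and Bid 0.679, Bak1 and Pmaip1 0.674, and Bcl2 and Bcl2l1 0.0855.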

How the data were processed

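RNA-seq was done on poly(A)+ RNA from sorted cells with single-end reads of 50 bases. Per the study's methods the authors aligned reads with TopHat2, assembled them with Cufflinks and compiled gene-level counts with htseq-count. The methods name mm10 and the submitters' processing notes name mm9. The deposited values are raw counts per gene symbol, with no normalization. In the retrovirus counts, 5 summary lines that name no gene, 67.0% to 68.4% of its column totals, were left out. Of 69 libraries, 67 were used, in 32 groups taken from the labels, and 2 CD4+ libraries whose title and treatment disagree were left out of all groups. The labels do not tie each library to an animal. The study's reporting summary gives 2 or 3 mice for each RNA-seq group. Replicates differed beyond sampling noise in all 38 pairs compared (chi-square per degree of freedom 5.75 to 101).

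Counts were analysed with edgeR 4.0.16 in R 4.3.3: TMM normalization, the Jaccard filter of HTSFilter (9412 to 10606 genes kept per fit), the legacy quasi-likelihood F test and Benjamini-Hochberg adjustment over all genes tested. Genotypes were compared within each condition, in a fit of its WT, AAB and BBA libraries, cytokine responses and their differences in 1 fit per cell state, and cell states in WT libraries. Calls needed more than 1.5-fold and an adjusted p under 0.05. In a simulation, changes of known size were added to counts drawn at the mean levels and depths of Tcm with IL-15 (10256 genes). All genes had 1 common spread, and changes were placed only in genes that passed the filter. There edgeR found 100% of 4-fold and 95% of 2-fold changes between BBA and WT with 5 false calls. For naive cells with IL-15 (10017 genes) it found 98% and 60%, with 4 false calls. Spread that differs between genes or libraries was not simulated, so these rates may not carry over to the data. CPM use TMM library sizes, and per-kilobase levels divide by merged exon length in GENCODE M21 (mm10), matched by symbol. The members and lists were chosen with earlier results of these data known. The genes named are all 10 members, Stat5a and Stat5b, up to 3 listed pathway genes per direction and comparison with the largest fold among those called, and the 3 genes most like each of Bcl2, Bcl2l1, Mcl1 and Bcl2l11. One gene that this rule names is not reported here.

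CD8+ groups share 2 replicate numbers, too few to be taken as pairs, and deviations of same-numbered libraries correlated at -0.0242 to 0.723. In CD4+ cells with IL-7, where WT and BBA share 3 numbers, they correlated at 0.157 to 0.348. The values reported for that condition come from the fit without pairs, and a replicate block changed no member's call there. Alternatives were other filters, size factors, DESeq2 1.42.0, edgeR 4's own test, Bonferroni adjustment, a replicate block, 1 fit per table, WT libraries only, and leaving out each replicate. Leaving out a library rich in Cd4 and a sex term in the retrovirus fit were alternatives chosen after seeing the data. Depth limits the lowest members: in CD4+ cells Pmaip1 lay at 0.726 to 7.80 CPM.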

Additional observations from a re-analysis of the deposited data

Results flagged for a closer look

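The response to cytokine differed between BBA and WT cells, by a test of the difference itself (edgeR, adjusted p), for 4 members. The response of Bcl2l11 to IL-7 in naive CD8+ cells differed in BBA by -1.39 on the log2 scale (adjusted p = 0.00336). The response to IL-15 in Tcm differed in BBA by -1.11 for Bcl2l1 (adjusted p = 0.0448), by -1.08 for Bid (adjusted p = 0.0276) and by -0.66 for Bax (adjusted p = 0.0343). Among these, Bcl2l1 and Bcl2l11 rose in WT, whereas the BBA response was 0.14 for Bcl2l1 and 0.28 for Bcl2l11. Bid fell in BBA by 0.74 on the log2 scale where the WT value was 0.34, not called, and for Bax neither response was called (-0.25 in BBA and 0.41 in WT). The Bcl2l11 difference was lost without WT replicate 1, WT replicate 2 or BBA replicate 2 (adjusted p 0.0524 to 0.106), the other 3 without any 1 replicate of WT, AAB or BBA (0.0714 to 0.326), and Bonferroni adjustment kept 0 of the 4. For the naive cells, IL-7 and sex cannot be told apart. No group held 4 or more libraries, so no group was examined for a library far from the others of its group.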

How the results depend on the processing

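Counts of member calls moved with the adjustment of p-values, the filter, the tool, a replicate block and single libraries, and no result changed direction under any alternative run. With Bonferroni adjustment, BBA against WT gave 4 calls (16 otherwise), AAB against WT 0, AAB against BBA 0, the WT cytokine response 5 (16 otherwise), the BBA difference in response 0, the cell states 1 (7 otherwise) and the retrovirus 0, with at most 1.30% of all genes called in any of these. Without a filter on low counts the counts were 30 for BBA against WT, 9 for AAB against WT, 13 for AAB against BBA, 11 for the cell states and 1 for the AAB difference in response, beside 8.55%, 2.26%, 1.78%, 4.80% and 0.236% of all genes. DESeq2 gave 9 calls for AAB against WT, 8 for AAB against BBA and 1 for the AAB difference in response, beside 2.40%, 1.90% and 0.714% of all genes. With a replicate block the counts were 21 for BBA against WT, 7 for AAB against WT, 8 for AAB against BBA, 7 for the BBA difference in response and 2 for the AAB difference, beside 7.90%, 1.85%, 1.95%, 4.08% and 0.408% of all genes. With the block, Mcl1 in WT CD4+ cells with IL-7 was 0.33 (0.75 without it), and the block changed no other named call. In the fits of cytokine responses the blocks lay within each culture. A response with the block therefore compares the cultures at 1 reference replicate number each, so 0.33 is no block-adjusted response. WT CD4+ libraries without and with IL-7 share 3 numbers at correlations of 0.0479 to 0.534, and those numbers were not taken as pairs either. No paired analysis was possible for the retrovirus libraries because the labels of the arms share 1 number (the library called Ctl replicate 1 carries none). With a term for sex instead, chosen after seeing the data, Bcl2 was 1.25 (edgeR, adjusted p = 0.000517) and Bcl2l11 0.82 (adjusted p = 0.00927). One fit over each table gave 5 calls for AAB against BBA, beside 0.625% of all genes. Leaving out 1 replicate gave 8 to 17 calls for BBA against WT (3.44% to 6.07% of all genes) and 0 to 5 for AAB against WT (0.228% to 1.94%). It gave 2 to 4 for AAB against BBA (0.369% to 0.835%) and 10 to 16 for the WT response (4.04% to 8.19%). The BBA difference had 0 to 4 (0.331% to 1.68%) and the AAB difference 0 to 1 (0.0175% to 0.843%). The cell states had 4 to 6 (2.24% to 3.59%) and the retrovirus 1 to 4 (2.33% to 8.97%). The counts moved by over 1.5 times without BBA replicate 1 (10) or 2 (8) for BBA against WT, without WT replicate 1 (1), WT replicate 2 (5) or AAB replicate 1 (0) for AAB against WT, and without WT replicate 2 (10) for the WT response. They also did so without replicate 1 or 2 of any genotype for the BBA difference (0 to 2), without WT replicate 1 or 2 for the AAB difference (1 each), without naive replicate 2 for the cell states (4), and without S5a replicate 1 (1) or Ctl replicate 1 (4) for the retrovirus. Of the values of single genes under an alternative, 565 kept their call and 149 did not. Leaving out the library rich in Cd4, chosen after seeing the data, kept 10 of 10. The mean BBA minus WT balance was -0.14, -0.31 without length scaling, -1.36 with the median member, and -0.20 to -0.08 without 1 replicate number, an alternative also chosen after seeing the data. The cause of these differences was not tested. With 2 libraries in most groups, a value that misses the threshold is not shown to be unchanged.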

Other observations

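Each of 2 CD4+ libraries was titled as without cytokine and had IL-7 as its treatment, so both were kept out of every group. The AAB library had Bcl2 at 251 CPM, Mcl1 at 818 CPM, Bcl2l11 at 107 CPM and Bcl2l1 at 16.6 CPM. The BBA library had Bcl2 at 147.5 CPM, Mcl1 at 736 CPM, Bcl2l11 at 80.5 CPM and Bcl2l1 at 16.9 CPM. Of the effectors, Bax stood at 57.9 and 59.5 CPM and Bak1 at 52.9 and 55.7 CPM in the AAB and BBA library.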
